A study of Mus musculus with 6 samples.

Results

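Imprinted genes of the mouse were followed in testis RNA at postnatal day 19, as a list of 49 genes known to be transcribed mainly from the maternal or mainly from the paternal copy. The genes were found by symbol in the GENCODE M21 annotation among 55487 gene identifiers, and all 49 had a row in the count table. Of these, 44 held enough reads to be tested, among 19826 tested genes. By the allele known to be active in mouse tissues, 21 of the 49 were classed as maternally expressed, 23 as paternally expressed and 5 as dependent on the isoform or the tissue. The classes are not particular to testis, and for some genes, such as Ube3a and Trappc9, the expressed allele is known from neurons or brain. The counts do not separate the parental copies, so every value below is the sum over both.

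The study sequenced polyadenylated RNA from whole testes of different mice, in 2 groups of 3 libraries. The dsfb group carries SFB alleles of Hormad1 and of Hormad2, whose proteins bind the axes of meiotic chromosomes, and the other group is labelled control. The sources used here do not give the strain, the alleles of the control mice or the nature of the SFB change. At this age the first wave of spermatogenesis has reached meiosis, and a testis also holds Sertoli, Leydig, peritubular and other somatic cells.

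Imprinting rests on DNA methylation that is set differently in eggs and sperm at control regions and is kept in the somatic cells of the offspring. In male germ cells these marks are erased in the embryo and rebuilt in the paternal pattern before birth. Many imprinted genes act in fetal growth, with paternally expressed genes such as Igf2 and Dlk1 often promoting it and maternally expressed genes such as Igf2r and Cdkn1c often restraining it. Several lie in clusters with a long non-coding RNA, and some sit inside the intron of a larger gene.

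Libraries held 15335130 to 17306363 counted reads in dsfb and 23983373 to 27707291 in control, so that 3 counts correspond to 0.152 to 0.172 CPM (each count divided by the scaled library size, on the usual per-million scale) in dsfb and 0.124 to 0.14 CPM in control. Hormad1 was present at 217, 246 and 243 CPM in dsfb, against 446, 486 and 209 CPM in control, with a log2 fold change of -0.69 and an adjusted p of 0.0597. Hormad2 averaged 27.1 CPM in dsfb and 52.7 CPM in control and fell (log2 fold change -0.96, adjusted p = 0.000757). Library 3 of the control group stood apart from the other control libraries: its chi-square per degree of freedom was 65 and 61.4 against them. The other pairs of libraries within a group had 3.82 to 7.75. The highest of these, 7.75 and 7.52, were those of dsfb library 3 against dsfb libraries 1 and 2. Calls of member genes and counts of markers that turn on it are given with and without it. Hormad1, for which it was the lowest control library, is given only with it. In whole tissue, fewer cells of a type and less RNA per cell cannot be told apart.

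The start regions of 6 genes that passed the test are shown first, since imprinting acts on CpG-rich DNA. They were chosen with their values known, to cover both directions of change and a wide range of CG content. Each is the 250 bases before the RefSeq transcription start (GRCm38.p6), on the strand of the gene, with CG pairs in capitals. Asb4, Slc22a18 and Mcts2 fell in dsfb, and Cd81, Zim1 and Meg3 rose. They lie at chr6:5383136-5383385 (Asb4, plus strand), chr7:143473539-143473788 (Slc22a18, plus), chr2:152686898-152687147 (Mcts2, plus), chr7:143052500-143052749 (Cd81, plus), chr7:6696433-6696682 (Zim1, minus) and chr12:109540746-109540995 (Meg3, plus).
Asb4: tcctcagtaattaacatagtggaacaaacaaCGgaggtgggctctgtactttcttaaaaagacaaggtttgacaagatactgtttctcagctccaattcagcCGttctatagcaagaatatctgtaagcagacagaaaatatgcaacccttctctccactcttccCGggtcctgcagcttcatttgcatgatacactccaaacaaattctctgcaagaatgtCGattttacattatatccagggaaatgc
Slc22a18: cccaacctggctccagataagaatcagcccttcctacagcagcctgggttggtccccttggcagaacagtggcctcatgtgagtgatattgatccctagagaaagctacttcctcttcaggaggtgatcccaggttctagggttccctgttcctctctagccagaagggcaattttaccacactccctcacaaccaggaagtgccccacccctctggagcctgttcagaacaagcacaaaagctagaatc
Mcts2: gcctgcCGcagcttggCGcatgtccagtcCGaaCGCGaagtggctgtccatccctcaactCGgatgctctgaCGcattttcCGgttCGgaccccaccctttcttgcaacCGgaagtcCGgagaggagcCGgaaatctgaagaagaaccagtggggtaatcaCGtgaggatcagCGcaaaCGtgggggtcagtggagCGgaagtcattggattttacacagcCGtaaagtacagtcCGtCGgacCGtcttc
Cd81: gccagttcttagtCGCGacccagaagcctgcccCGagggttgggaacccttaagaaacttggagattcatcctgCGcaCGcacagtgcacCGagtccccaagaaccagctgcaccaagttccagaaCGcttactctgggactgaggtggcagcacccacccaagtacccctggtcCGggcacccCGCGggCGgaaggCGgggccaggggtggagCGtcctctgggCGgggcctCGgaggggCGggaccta
Zim1: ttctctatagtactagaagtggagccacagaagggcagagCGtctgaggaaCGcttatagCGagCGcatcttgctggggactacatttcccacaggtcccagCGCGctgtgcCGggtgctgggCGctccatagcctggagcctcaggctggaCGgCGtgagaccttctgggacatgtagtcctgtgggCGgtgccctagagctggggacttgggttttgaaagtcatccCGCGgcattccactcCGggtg
Meg3: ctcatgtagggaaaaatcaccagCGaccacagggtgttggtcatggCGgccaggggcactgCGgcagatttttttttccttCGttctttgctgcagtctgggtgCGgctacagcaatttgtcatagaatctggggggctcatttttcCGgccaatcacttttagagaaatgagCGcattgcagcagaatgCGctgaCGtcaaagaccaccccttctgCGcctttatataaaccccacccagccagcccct

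The 6 windows run across the range of CG content. Slc22a18 has 0 CG pairs and Asb4 has 4, whereas Meg3 has 10, Zim1 has 14, Cd81 has 16 and Mcts2 has 20. Of 39 members with a RefSeq start, 32 had a window within 200 bases of the GENCODE start, and these held a median of 10.5 CG pairs, with 18 of 32 at 10 or more. Over all 32851 RefSeq windows the median was 6, and 37.8% had 10 or more. The letters TGCCGC, the core of the motif bound by the imprint-keeping protein ZFP57 when methylated, were searched on both strands. They stood in 4 of the 32 windows, among them Mcts2, Zim1 and Meg3, and in 8.68% of all windows. The cyclic AMP response element TGACGTCA stood in 3 of 32, among them Meg3, and in 1.55% of all windows, and TATAAA stood in 6 of 32 and in 12.4% of all. Windows of the 14 genes that rose held a median of 10.5 CG pairs (range 8 to 27) and those of the 5 genes that fell a median of 14 (range 0 to 24), so that the ranges overlapped.

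Imprinted non-coding RNAs are also hosts of small RNAs, and the mature sequences of 6 microRNAs of hosts that changed are given with the seed (bases 2 to 8) in capitals. The first 4 lie in Mirg, at chr12:109729764-109749460, which holds 14 annotated hairpins with 26 mature microRNAs. The others lie in H19 and in Mest. Sequences are those of RefSeq.
mmu-miR-453 (Mirg): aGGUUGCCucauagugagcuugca
mmu-miR-496a-5p (Mirg): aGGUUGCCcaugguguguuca
mmu-miR-134-5p (Mirg): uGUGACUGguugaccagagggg
mmu-miR-410-3p (Mirg): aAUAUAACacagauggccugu
mmu-miR-675-5p (H19): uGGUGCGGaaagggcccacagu
mmu-miR-335-5p (Mest): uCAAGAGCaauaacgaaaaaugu

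The pair miR-453 and miR-496a-5p carries the same seed, GGUUGCC. No other seed was shared among the mature microRNAs on the strand of Mirg, H19, Mest, Igf2, Rian and Meg3. Other members were not searched for microRNAs. Mature microRNAs were not measured here, since the libraries hold polyadenylated RNA, so only the host transcripts have values.

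Most imprinted transcripts were higher in dsfb testes, and a small number were much lower. Of the 44 tested, 23 rose, 7 fell and 14 did not pass (edgeR's quasi-likelihood test, with a threshold of 0.05 on p-values adjusted over all tested genes). Asb4, Slc22a18 and Mirg had the largest falls, and Cdkn1c and Gnas the largest rises. Rises made up 52.3% of the tested members and falls 15.9%, while over all tested genes 30.7% rose and 36.2% fell. The share that passed in either direction, 68.2%, was near that of all genes, 66.9%. Rises of at least 2-fold numbered 11 (25%), against 13.2% over all genes, and falls of at least 2-fold numbered 6 (13.6%), against 26.8%. The median log2 fold change of the tested members was 0.72 (range -6.7 to 2.01) and that of all tested genes was 0.02. Groups did not overlap for 29 of the 44 members (65.9%) and for 74.7% of all tested genes.

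Together the members took 0.231%, 0.237% and 0.232% of counted reads in dsfb, against 0.152%, 0.142% and 0.123% in control. Every dsfb library was above every control library, with a ratio of means of 1.68. Exact permutation of the library labels, two-sided, gave p = 0.1 for these shares. That is the lower limit for 3 against 3 libraries, so the threshold could not be passed. The shares are of counted reads without the scaling used for CPM. On the scaled CPM the gap was smaller, with member sums of 2000 to 2080 CPM in dsfb and 1460 to 1700 CPM in control. The number of member genes that rose depends on the scaling of the libraries: it was 27 with upper-quartile scaling and 30 with library size alone, each with 6 falls. Those scalings move the all-gene median by 0.278 and 0.396 log2 units and give shares of rises among all calls of 57.2% and 60.9%, where TMM scaling gave 45.9%. Without any filter on low counts the shift was -0.303, the share of rises 35.5%, and 20 members rose and 7 fell. Without control library 3, 24 members rose and 9 fell.

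By expressed allele, 8 of 19 tested maternally expressed genes rose, 6 fell and 5 did not pass, with a median log2 fold change of 0.41. Rises were 42.1% and falls 31.6% of this class, beside 30.7% and 36.2% of all tested genes. Of 20 tested paternally expressed genes 12 rose, 1 fell (Mcts2) and 7 did not pass, with a median of 0.85, so that 60% rose and 5% fell. Of the 5 genes whose expressed allele depends on isoform or tissue, 3 rose (Gnas, Inpp5f and Blcap) and 2 did not pass (Grb10 and H13), with a median of 0.53. Summed CPM ran from 687 to 708 in dsfb and from 397 to 515 in control for the paternally expressed genes. For the maternally expressed genes the sums were 988 to 1080 CPM in dsfb and 826 to 924 CPM in control. Whether the maternal and paternal classes differ was not tested, and the maternal median moved to 0.14 without control library 3 and to 0.62 without control library 2. The maternal falls include Ube3a and Trappc9, whose maternal expression is known from neurons and brain, and the allele used in testis was not measured.

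**Figure D1:**
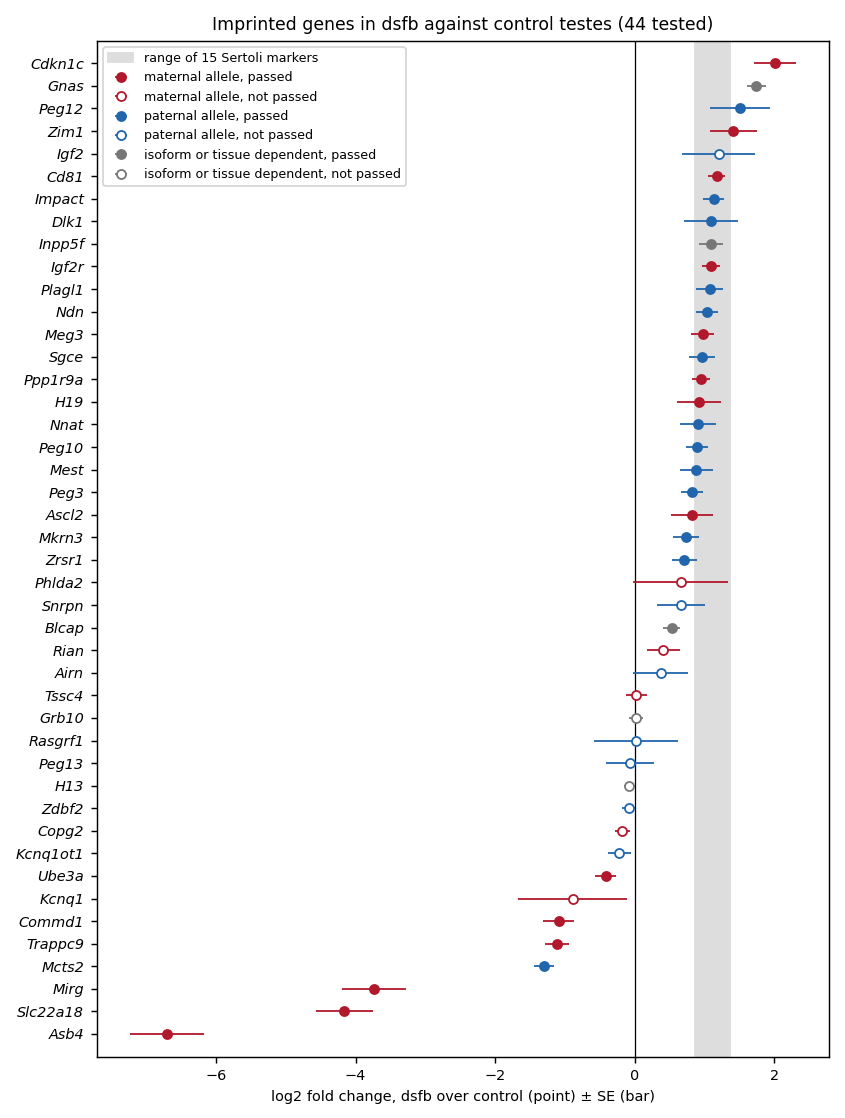
Log2 fold change of dsfb over control (point) with its SE (bar) for the 44 tested imprinted genes, coloured by expressed allele and filled where the gene passed at an adjusted p under 0.05; the grey band spans the 15 Sertoli cell markers. Most points lie between 0 and 2.01, and Asb4 at -6.7, Slc22a18 at -4.16 and Mirg at -3.74 lie far to the left.

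Among the 7 long non-coding RNAs, 2 rose (28.6%), 1 fell (14.3%) and 4 did not pass, beside 30.7% rises and 36.2% falls over all tested genes. Their summed levels overlapped, at 70.5 to 78.1 CPM in dsfb and 74.6 to 76 CPM in control. H19, a maternally expressed RNA next to Igf2 and the host of miR-675 (chr7:142575529-142578143, minus strand), had 7.97, 6.94 and 6.91 CPM in dsfb, against 3.96, 5.29 and 2.27 CPM in control. It rose (log2 fold change 0.92 ± 0.31 (SE), adjusted p = 0.0317), and the libraries of the groups did not overlap. The call of H19 was lost without dsfb library 1 (adjusted p = 0.0953), 2 (0.0698) or 3 (0.0664), and without control library 1 (0.0785), and with no filter on low counts (0.0589). Airn, the paternally expressed transcript that crosses and silences Igf2r (chr17:12741311-12860136, plus strand), had 1.42, 0.861 and 1.24 CPM in dsfb, against 0.791, 1.32 and 0.603 CPM in control. These values overlap and the gene did not pass (log2 fold change 0.37 ± 0.39 (SE), adjusted p = 0.423). Kcnq1ot1, the paternally expressed antisense RNA that silences its neighbours (chr7:143203458-143296549, minus strand), had 25.8, 29.6 and 34.8 CPM in dsfb, against 38.7, 37.2 and 29.3 CPM in control. It did not pass (log2 fold change -0.22 ± 0.16 (SE), adjusted p = 0.25), but without control library 3 it was called lower (log2 fold change -0.37, adjusted p = 0.00755). Peg13, a paternally expressed RNA inside an intron of Trappc9 (chr15:72805600-72810324, minus strand), had 10.4, 9.06 and 7.88 CPM in dsfb, against 7.59, 5.95 and 15.1 CPM in control. Control library 3 was the highest of all 6 for Peg13, and the gene did not pass (log2 fold change -0.07 ± 0.35 (SE), adjusted p = 0.879).

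The 3 RNAs of the Dlk1 to Meg3 cluster on chromosome 12 are all maternally expressed and lie in the order Meg3, Rian, Mirg on the plus strand. Meg3 (chr12:109541001-109571726, plus strand) had 14.8, 17.3 and 18.1 CPM in dsfb, against 7.54, 9.37 and 8.71 CPM in control. All dsfb values were above all control values, and Meg3 rose (log2 fold change 0.97 ± 0.17 (SE), adjusted p = 0.00174). Rian, which hosts small nucleolar RNAs (chr12:109603940-109661716, plus strand), had 9.19, 10.4 and 8.91 CPM in dsfb, against 9.07, 7.23 and 5.19 CPM in control, overlapping values that did not pass (log2 fold change 0.41 ± 0.24 (SE), adjusted p = 0.165). Mirg, whose microRNAs are printed above, had 0.965, 1.03 and 0.324 CPM in dsfb, against 8.33, 8.26 and 14.6 CPM in control. Its dsfb libraries held 19, 18 and 6 reads and its control libraries 179, 200 and 314, with no overlap, and it fell (log2 fold change -3.74 ± 0.46 (SE), adjusted p = 0.000263, a 13.3-fold difference). Along these neighbours the log2 fold changes were therefore 0.97, 0.41 and -3.74, so both directions occurred within the cluster. Library 3 was the highest of the control group and the lowest of the dsfb group for Mirg, whose log2 fold change lay between -3.98 and -3.34 under 15 other settings.

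Of the 6 genes grouped for their part in growth control, 3 rose (50%, beside 30.7% of all tested genes) and 3 did not pass. Cdkn1c, the inhibitor p57 of cyclin-dependent kinases (chr7:143458339-143461050, minus strand, maternally expressed), had 12.6, 13.4 and 16.1 CPM in dsfb, against 4.65, 3.68 and 2.13 CPM in control. It had the largest rise of all tested members (log2 fold change 2.01 ± 0.3 (SE), adjusted p = 0.000767, 4.02-fold), and the groups did not overlap. A predicted gene on the other strand, Gm44732, shares 30.7% of the exonic length of Cdkn1c and held 0 counts. The use of strand in counting is not known, so the value of Cdkn1c is uncertain for this part. Igf2r, the receptor that clears insulin-like growth factor 2 and sorts lysosomal enzymes (chr17:12682406-12769664, minus strand, maternally expressed), had 141, 163 and 153 CPM in dsfb, against 76.7, 79.7 and 58.7 CPM in control. Every dsfb library was above every control library, and Igf2r rose (log2 fold change 1.09 ± 0.13 (SE), adjusted p = 0.000242). Dlk1, a membrane protein related to Notch ligands (chr12:109452823-109463336, plus strand, paternally expressed), had 12.9, 11.6 and 7.02 CPM in dsfb, against 5.96, 6.36 and 2.5 CPM in control. It rose (log2 fold change 1.09 ± 0.39 (SE), adjusted p = 0.0387), although library 3 was low in both groups and the call was lost without dsfb library 1 (adjusted p = 0.126) or 2 (0.107) or without control library 1 (0.0602).

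The growth genes that did not pass were Igf2, Phlda2 and Grb10. Igf2, the fetal growth factor (chr7:142650766-142666816, minus strand, paternally expressed), had 0.863, 1.09 and 2.7 CPM in dsfb, against 0.977, 0.537 and 0.51 CPM in control. Its dsfb library 3 was the highest of all 6, its dsfb library 1 lay within the control range and its dsfb library 2 just above that range. Igf2 did not pass (log2 fold change 1.2 ± 0.52 (SE), adjusted p = 0.0743). Without dsfb library 3 its log2 fold change was 0.54 (adjusted p = 0.333). Its value is uncertain, since the predicted gene Gm49394, with 0 counts, shares 62.8% of its exonic length on the same strand. Igf2 passed as higher with upper-quartile scaling (adjusted p = 0.0343) and with library size alone (0.0261). Phlda2, a maternally expressed brake on placental growth, had 0.66, 0.861 and 0.756 CPM in dsfb, against 0.326, 0.991 and 0.0927 CPM in control (log2 fold change 0.66 ± 0.68 (SE), adjusted p = 0.417), and passed without control library 2 (log2 fold change 1.82, adjusted p = 0.038). Grb10, an adaptor that dampens insulin receptor signalling, had 63.8, 72.9 and 70.2 CPM in dsfb, against 76, 64.4 and 64.2 CPM in control (log2 fold change 0.02 ± 0.1 (SE), adjusted p = 0.9). Its groups overlapped, and Grb10 passed as higher with upper-quartile scaling (0.0366) and library size alone (0.0136).

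All 4 tested transcription factors rose, beside 30.7% of all tested genes. The fifth of the list, Klf14, held 1, 1 and 5 reads in dsfb against 3, 5 and 2 in control and was not tested. Peg3, a paternally expressed zinc finger protein (chr7:6703892-6730431, minus strand), had 107, 103 and 114 CPM in dsfb, against 70.8, 66.6 and 46.3 CPM in control (log2 fold change 0.82 ± 0.16 (SE), adjusted p = 0.0025). Its maternally expressed neighbour Zim1, another zinc finger gene (chr7:6671269-6696450, minus strand), had 5.18, 5.05 and 6.32 CPM in dsfb, against 2, 2.97 and 1.21 CPM in control (log2 fold change 1.41 ± 0.34 (SE), adjusted p = 0.00717). Both genes of this pair of opposite expressed alleles were thus higher, without overlap between the groups. Plagl1, a paternally expressed zinc finger regulator of growth genes (chr10:13060504-13131694, plus strand), had 16.6, 17 and 20.9 CPM in dsfb, against 9.26, 9.66 and 7 CPM in control (log2 fold change 1.07 ± 0.19 (SE), adjusted p = 0.00192). Ascl2, a basic helix-loop-helix factor of the placenta and maternally expressed, had 4.37, 4.53 and 3.46 CPM in dsfb, against 3.07, 2.4 and 1.53 CPM in control (log2 fold change 0.82 ± 0.3 (SE), adjusted p = 0.0415). The call of Ascl2 was the least stable of these: it was lost in 8 of 15 other settings, with adjusted p-values of 0.113, 0.12 and 0.0555 without dsfb libraries 1, 2 and 3, and 0.0948 and 0.053 without control libraries 2 and 3.

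The strongest fall of any member was that of Asb4, which encodes a substrate receptor of a ubiquitin ligase (chr6:5383386-5433022, plus strand, maternally expressed). It had 0.0508, 0.402 and 0.864 CPM in dsfb, against 41.1, 42.3 and 53.6 CPM in control, from 1, 7 and 16 reads in dsfb and 884, 1024 and 1157 reads in control. Dsfb library 1 was below the level of 3 counts, and the groups were far apart (log2 fold change -6.7 ± 0.53 (SE), adjusted p = 2.93e-05, a 104-fold difference). The size rests on few dsfb reads: the log2 fold change was -6.14 without dsfb library 1 and -7.66 without dsfb library 3. Per kilobase of exon, Asb4 had 0.112 CPM in dsfb and 11.6 CPM in control. Slc22a18, a maternally expressed membrane transporter (chr7:143473736-143499334, plus strand), had 0.609, 0.631 and 0.864 CPM in dsfb, against 8.28, 9.87 and 19.7 CPM in control (log2 fold change -4.16 ± 0.41 (SE), adjusted p = 9.2e-05, 17.8-fold lower). Control library 3 was highest for Slc22a18, Asb4 and Mirg alike, and all 3 genes fell in each of 15 other settings, leaving out that library among them.

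Asb4 belongs to the Peg10 cluster on chromosome 6, where the other 3 genes among the 49 rose. Peg10, a paternally expressed gene derived from a retrotransposon and needed for the placenta (chr6:4747306-4760517, plus strand), had 275, 261 and 267 CPM in dsfb, against 171, 154 and 108 CPM in control (log2 fold change 0.89 ± 0.16 (SE), adjusted p = 0.00197). Its paternally expressed neighbour Sgce, which encodes epsilon-sarcoglycan and starts 98 bases away on the other strand (chr6:4674350-4747207, minus strand), had 29.6, 30.2 and 32.9 CPM in dsfb, against 19.2, 16.8 and 11.6 CPM in control (log2 fold change 0.96 ± 0.19 (SE), adjusted p = 0.0032). Ppp1r9a, maternally expressed and coding for the actin-binding protein neurabin (chr6:4902917-5165661, plus strand), had 246, 255 and 247 CPM in dsfb, against 149, 135 and 103 CPM in control (log2 fold change 0.95 ± 0.13 (SE), adjusted p = 0.000575). Every library of the dsfb group was above every control library for these 3 genes. Of the 2 maternally expressed members here, Ppp1r9a rose and Asb4 fell, and Pon2, a gene of the region outside the 49, also fell, as given below. Pon3 and Casd1, also of the region and outside the 49, did not pass (log2 fold change 0.52 and 0.31, adjusted p = 0.0529 and 0.11). For Pon3 all dsfb libraries were above all control libraries. Rtl1, the other retrotransposon-derived gene of the list, from the Dlk1 to Meg3 cluster, held 0 counts in all 6 libraries, at a 3-count limit of at most 0.172 CPM.

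The Kcnq1ot1 cluster on chromosome 7 also held both directions, with Cdkn1c higher and its neighbour Slc22a18 lower. Cd81, a maternally expressed tetraspanin (chr7:143052739-143067934, plus strand), had 198, 206 and 173 CPM in dsfb, against 99.1, 79.7 and 77.5 CPM in control (log2 fold change 1.17 ± 0.12 (SE), adjusted p = 0.000121). Kcnq1, a maternally expressed potassium channel (chr7:143106362-143427042, plus strand), was near the detection limit, with 0.203, 0.574 and 0.108 CPM in dsfb, against 0.14, 0.867 and 0.603 CPM in control (log2 fold change -0.89 ± 0.78 (SE), adjusted p = 0.341). Tssc4, maternally expressed, had 26.9, 24.2 and 24.8 CPM in dsfb, against 24, 21.4 and 29.6 CPM in control (log2 fold change 0.02 ± 0.15 (SE), adjusted p = 0.922). Of the 8 members of this cluster 3 rose (Cdkn1c, Cd81 and Ascl2), 1 fell (Slc22a18) and 4 did not pass. Rises were thus 37.5% and falls 12.5%, beside 30.7% and 36.2% of all tested genes.

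Gnas had the second largest rise. It encodes the stimulatory G protein alpha subunit, with isoforms expressed from the maternal, the paternal or both copies (chr2:174284320-174346744, plus strand), and had 28.5, 28.7 and 33.5 CPM in dsfb, against 9.31, 9.21 and 8.58 CPM in control. Control libraries lay close together and all dsfb libraries were above them (log2 fold change 1.74 ± 0.14 (SE), adjusted p = 2.98e-05). Gene counts do not separate its isoforms. The predicted gene Gm20721 on the other strand shares 13.1% of the exonic length of Gnas. It held 1, 3 and 7 reads in dsfb against 0, 0 and 2 in control and was not tested. The antisense gene Nespas shares 8.83% of the exonic length of Gnas and fell, with 3.68 ± 0.838 CPM in dsfb and 7.94 ± 1.31 CPM in control (SD, n = 3 each; log2 fold change -1.1 ± 0.25 (SE), adjusted p = 0.00559). Whether reads were counted by strand is not known, so values of overlapping genes are uncertain.

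**Figure D2:**
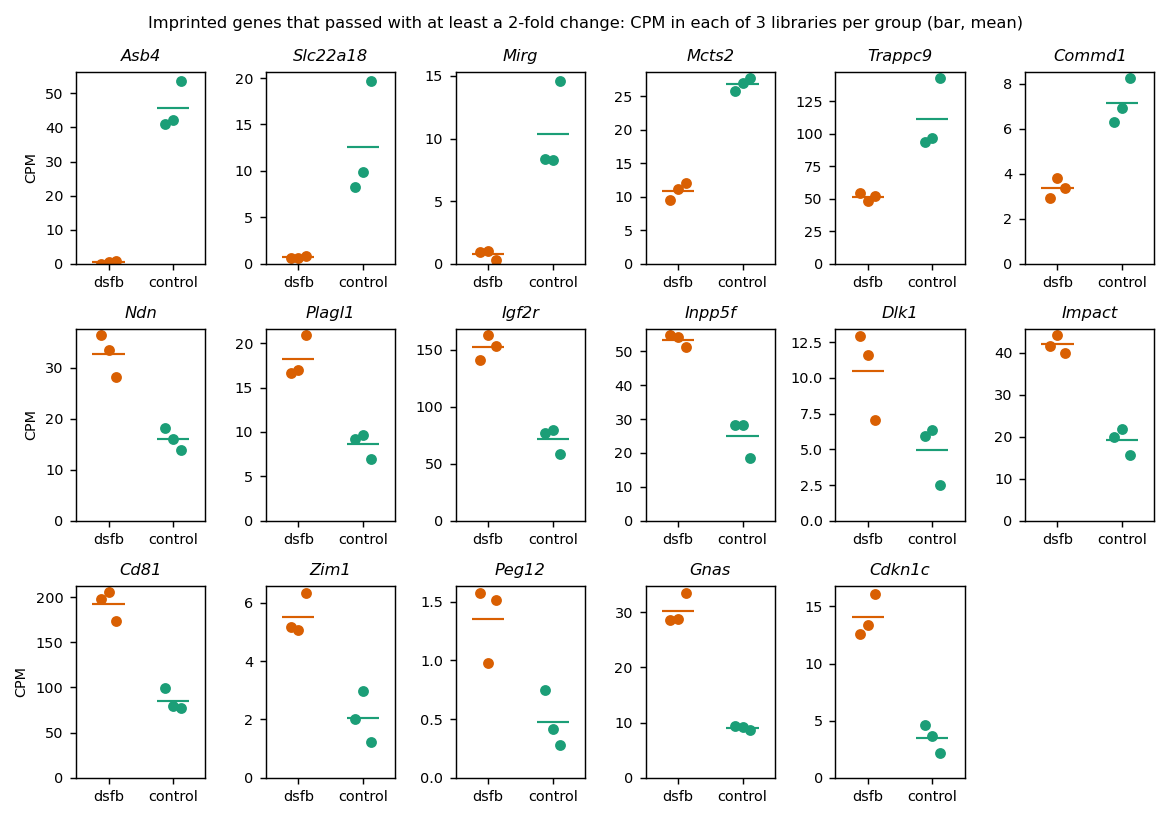
CPM in each library (points) and the group mean (bar) for the 17 imprinted genes that passed with at least a 2-fold change, with dsfb left of control in each panel and axes that start at 0. The panels of the top row fell and the others rose, and in all 6 panels of the top row control library 3 (the point furthest right) is highest.

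Paternally expressed genes of the Snrpn to Ube3a region on chromosome 7 were higher in part. Ndn, which encodes the MAGE family protein necdin (chr7:62346569-62350262, plus strand), had 36.5, 33.4 and 28.1 CPM in dsfb, against 18.1, 16.1 and 13.9 CPM in control (log2 fold change 1.03 ± 0.16 (SE), adjusted p = 0.000872). Peg12, a relative of the Frat inhibitors of GSK3 (chr7:62461871-62464510, minus strand), was low, with 1.57, 0.975 and 1.51 CPM in dsfb, against 0.745, 0.413 and 0.278 CPM in control (log2 fold change 1.5 ± 0.43 (SE), adjusted p = 0.0164). The call of Peg12 was lost without dsfb library 1 (adjusted p = 0.0628) or 3 (0.0562) or control library 2 (0.057). Mkrn3, a makorin ubiquitin ligase, had 6.96, 7.11 and 6.91 CPM in dsfb, against 3.77, 4.54 and 4.36 CPM in control (log2 fold change 0.73 ± 0.19 (SE), adjusted p = 0.0105), a call lost with no filter on low counts (0.0545). Snrpn, a spliceosomal protein gene that shares exons with Snurf and Gm38393 on the same strand, had 1.68, 1.95 and 1.35 CPM in dsfb, against 0.838, 0.826 and 1.48 CPM in control (log2 fold change 0.66 ± 0.34 (SE), adjusted p = 0.12). It did not pass, though it was called higher without control library 3 (log2 fold change 0.96, adjusted p = 0.0337). Magel2, the sister gene of Ndn, held 2, 1 and 4 reads in dsfb against 1, 6 and 2 in control and was not tested.

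Ube3a, the ubiquitin ligase that is maternally expressed in neurons (chr7:59228750-59311536, plus strand), had 96.8, 108 and 92.1 CPM in dsfb, against 148, 147 and 102 CPM in control. Control library 3 lay within the dsfb range, so the groups overlapped, and the fall just passed (log2 fold change -0.42 ± 0.15 (SE), adjusted p = 0.0405). It was lost in 9 of 15 other settings. The adjusted p was 0.123, 0.0654 and 0.146 without dsfb libraries 1, 2 and 3, and 0.0861 and 0.119 without control libraries 1 and 2. Without control library 3 the fall was larger (log2 fold change -0.61, adjusted p = 1.17e-06). Snhg14, the antisense RNA that overlaps Ube3a, averaged 4.69 CPM in dsfb and 5.53 CPM in control and did not pass (log2 fold change -0.24, adjusted p = 0.332).

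Of the remaining coding genes, Impact and Inpp5f rose by at least 2-fold. Impact, a paternally expressed inhibitor of the amino acid sensor GCN2 (chr18:12955852-12992950, plus strand), had 41.7, 44.3 and 40.1 CPM in dsfb, against 20, 21.9 and 15.7 CPM in control (log2 fold change 1.13 ± 0.15 (SE), adjusted p = 0.000372). Inpp5f, a phosphoinositide phosphatase with a paternally expressed isoform (chr7:128611328-128696425, plus strand), had 54.8, 54.2 and 51.2 CPM in dsfb, against 28.3, 28.2 and 18.6 CPM in control (log2 fold change 1.09 ± 0.17 (SE), adjusted p = 0.00091). Both were higher in every dsfb library. Rasgrf1, a paternally expressed activator of Ras, had 2.49, 2.29 and 4.27 CPM in dsfb, against 1.72, 1.2 and 6.03 CPM in control (log2 fold change 0.02 ± 0.6 (SE), adjusted p = 0.978). Control library 3 alone was the highest of all 6 for Rasgrf1, and without it the gene was called higher (log2 fold change 1.02, adjusted p = 0.0101). Zdbf2, a paternally expressed zinc finger gene, had 89.2, 90.3 and 94 CPM in dsfb, against 98.4, 104 and 88.9 CPM in control and did not pass (log2 fold change -0.09 ± 0.09 (SE), adjusted p = 0.387). Too few reads for a test were found for Dio3, which inactivates thyroid hormone (9, 11 and 7 reads in dsfb against 7, 7 and 4 in control), and for Slc22a3, an organic cation transporter (2, 6 and 3 reads in dsfb against 1, 3 and 6 in control).

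Levels of different members were compared as CPM per kilobase of exon. The highest in dsfb were Cd81 at 66.8, Peg10 at 40.1, Copg2 at 38.6 and Blcap at 18.9. In control they were Copg2 at 43.6, Cd81 at 29.7, Mcts2 at 29.4 and Peg10 at 21.7. Mcts2 had 12 in dsfb, and Trappc9 had 6.52 in dsfb and 14 in control. The order of the most abundant imprinted transcripts thus differed between the groups, with Cd81 first in dsfb and Copg2 first in control. These are group means on the per-kilobase scale, without a test of the order.

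Several imprinted genes lie inside or beside another member, often one with a different expressed allele, and 11 such pairs were compared by the log2 ratio of their CPM within each library. The smallest p that an exact permutation test of 3 against 3 libraries can give is 0.1, which becomes 0.183 after adjustment over the 11 pairs. Groups did not overlap in 6 pairs, all with these p-values, and no pair could therefore pass the threshold. The share of other gene pairs without overlap was not computed. Among single tested genes 74.7% did not overlap, so 6 of 11 does not set these pairs apart. The 6 pairs are described first.

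Mcts2, a paternally expressed retrogene, lies in an intron of H13, which encodes signal peptide peptidase, on the same strand. Mcts2 (chr2:152687035-152687946, plus strand) had 9.55, 11.1 and 12 CPM in dsfb, against 25.8, 26.9 and 27.7 CPM in control and fell (log2 fold change -1.3 ± 0.14 (SE), adjusted p = 0.000166). H13 (chr2:152669461-152708670, plus strand) had 94.2, 99.8 and 100 CPM in dsfb, against 105, 97.1 and 109 CPM in control and did not pass (log2 fold change -0.08 ± 0.08 (SE), adjusted p = 0.399). The log2 ratio of Mcts2 over H13 was -3.16 ± 0.12 in dsfb and -1.95 ± 0.09 in control (SD, n = 3 each), a difference of -1.22. Its X-linked parent gene Mcts1, which acts in translation reinitiation, moved the other way, with 18.4, 20.9 and 20.4 CPM in dsfb, against 9.03, 8.71 and 5.84 CPM in control (log2 fold change 1.34 ± 0.21 (SE), adjusted p = 0.000852). Reads of the retrogene and its parent may have been divided between them in counting, which could not be checked from gene counts.

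Zrsr1, a paternally expressed retrogene for a splicing factor, lies inside Commd1, a maternally expressed regulator of copper balance, on the opposite strand. Zrsr1 (chr11:22972005-22976496, plus strand) had 16.9, 18.6 and 18.6 CPM in dsfb, against 13.1, 9.33 and 10.6 CPM in control and rose (log2 fold change 0.71 ± 0.18 (SE), adjusted p = 0.00828). Commd1 (chr11:22896136-22982382, minus strand) had 2.9, 3.79 and 3.35 CPM in dsfb, against 6.28, 6.9 and 8.25 CPM in control and fell (log2 fold change -1.09 ± 0.22 (SE), adjusted p = 0.00307). The log2 ratio of Zrsr1 over Commd1 was 2.4 ± 0.12 in dsfb and 0.61 ± 0.38 in control (SD, n = 3 each), a difference of 1.79 and the largest of the 11 pairs. The X-linked relative Zrsr2 averaged 52.6 ± 5.63 CPM in dsfb and 22.7 ± 3.89 CPM in control and also rose (log2 fold change 1.21, adjusted p = 0.000347). Annotated exons of the pair share 412 bases.

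Trappc9, a subunit of a vesicle tethering complex that is mainly maternally expressed in brain (chr15:72589620-73061204, minus strand), had 54.3, 48.3 and 52.6 CPM in dsfb, against 94, 97.1 and 143 CPM in control and fell (log2 fold change -1.11 ± 0.17 (SE), adjusted p = 0.000828). Its guest Peg13, given above, did not pass, and the log2 ratio of Peg13 over Trappc9 was -2.5 ± 0.19 in dsfb and -3.62 ± 0.38 in control (SD, n = 3 each). Mest, a paternally expressed gene for a hydrolase-like protein and the host of miR-335 (chr6:30723547-30748465, plus strand), had 7.92, 7.34 and 5.78 CPM in dsfb, against 4.65, 3.76 and 3.01 CPM in control and rose (log2 fold change 0.88 ± 0.24 (SE), adjusted p = 0.014); without dsfb library 1 its adjusted p was 0.0559. Copg2, its maternally expressed neighbour for a coat protein subunit (chr6:30747554-30896794, minus strand), had 205, 209 and 180 CPM in dsfb, against 237, 240 and 194 CPM in control and did not pass (log2 fold change -0.18 ± 0.11 (SE), adjusted p = 0.198). Without control library 3 Copg2 was called lower (log2 fold change -0.3, adjusted p = 0.00275). The log2 ratio of Copg2 over Mest was 4.81 ± 0.13 in dsfb and 5.85 ± 0.18 in control, and their exons share 912 bases on opposite strands. The ratio of Zim1 over Peg3 was -4.28 ± 0.11 in dsfb and -4.89 ± 0.39 in control, and that of Airn over Igf2r -6.93 ± 0.45 in dsfb and -6.21 ± 0.35 in control.

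In the other 5 pairs the ratios of the groups overlapped. Nnat, a paternally expressed membrane protein (chr2:157560078-157562522, plus strand), lies in an intron of Blcap (chr2:157556362-157571274, minus strand) on the other strand. Nnat had 5.54, 4.48 and 6.37 CPM in dsfb, against 2.79, 2.31 and 3.66 CPM in control (log2 fold change 0.9 ± 0.26 (SE), adjusted p = 0.0162), and the call was lost without dsfb library 3 (adjusted p = 0.0557), control library 1 (0.0572) or control library 2 (0.0615). Blcap had 62.4, 58.7 and 51.2 CPM in dsfb, against 42.9, 40.9 and 35.9 CPM in control (log2 fold change 0.53 ± 0.12 (SE), adjusted p = 0.00498). Both rose, and their log2 ratio was -3.38 ± 0.36 in dsfb and -3.75 ± 0.43 in control (exact p = 0.4, adjusted 0.55). For Peg10 over Sgce, both higher, it was 3.11 ± 0.1 in dsfb and 3.18 ± 0.02 in control (exact p = 0.4). Meg3 over Dlk1 gave 0.71 ± 0.59 in dsfb and 0.88 ± 0.77 in control (exact p = 0.7). H19 over Igf2 gave 2.32 ± 0.9 in dsfb and 2.32 ± 0.66 in control (exact p = 1), and Kcnq1ot1 over Kcnq1 gave 6.42 ± 0.96 in dsfb and 6 ± 1.16 in control (exact p = 0.5). The direction of the last 3 differences turned when single libraries were left out.

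**Figure D3:**
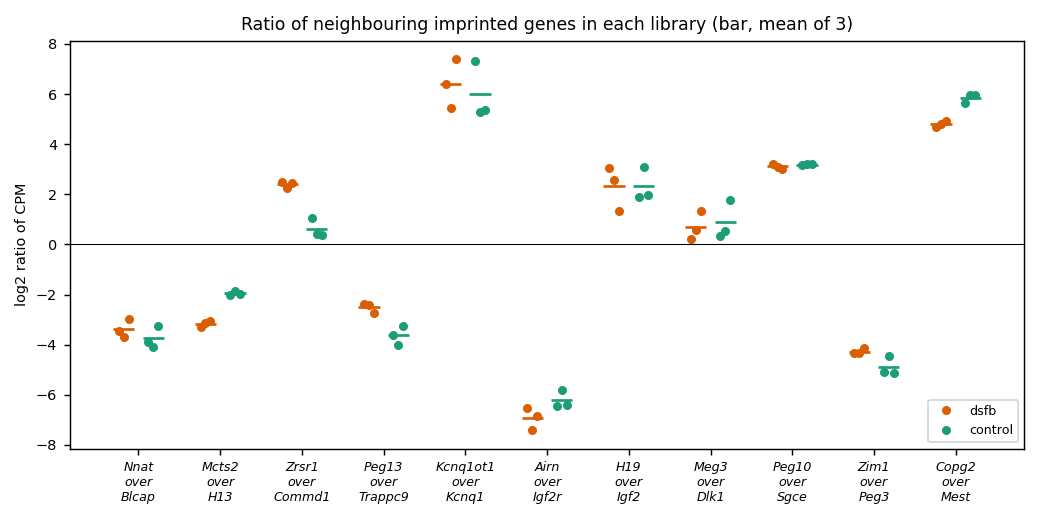
Log2 ratio of CPM of the first gene over the second in each library (points), with the mean of 3 libraries as a bar and dsfb left of control, for 11 pairs of neighbouring imprinted genes. The groups are apart for Mcts2 over H13, Zrsr1 over Commd1, Peg13 over Trappc9, Airn over Igf2r, Zim1 over Peg3 and Copg2 over Mest, and they overlap in the other 5 pairs.

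Of 26 tested genes in a further list of 33 imprinted genes outside the 49, 11 rose (42.3%), 8 fell (30.8%) and 7 did not pass, with a median log2 fold change of 0.38. The share that passed, 73.1%, was near the 66.9% of all tested genes. Its smallest p-values were those of Sfmbt2, a polycomb protein gene that fell to 51.6 ± 0.307 CPM in dsfb, against 158 ± 13 CPM in control (adjusted p = 4.32e-06), and of Osbpl5, Pon2 and Jade1. Osbpl5 averaged 47.5 CPM in dsfb and 18.9 CPM in control (log2 fold change 1.32). Pon2, in the Peg10 cluster, averaged 8.63 CPM in dsfb and 31.8 CPM in control (log2 fold change -1.88), and Jade1 averaged 180 CPM in dsfb and 84.7 CPM in control (log2 fold change 1.08).

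Genes that set, keep or remove imprints were mixed: of 17 tested, 7 rose (41.2%), 3 fell (17.6%) and 7 did not pass, with a median of 0.35. Over all tested genes 30.7% rose and 36.2% fell. The share of regulators that passed, 58.8%, was below the 66.9% of all tested genes. Uhrf1, which brings the maintenance methylase to newly copied DNA, averaged 102 ± 1.49 CPM in dsfb and 195 ± 20.5 CPM in control (log2 fold change -0.93, adjusted p = 0.000106). Zfp57, which protects imprints in the early embryo, averaged 4.14 ± 0.211 CPM in dsfb and 15.4 ± 4.86 CPM in control (log2 fold change -1.89, adjusted p = 0.000455). The de novo methylase Dnmt3a averaged 154 ± 2.47 CPM in dsfb and 68.6 ± 11.6 CPM in control (log2 fold change 1.16, adjusted p = 0.000146), and the demethylating enzyme Tet3 averaged 125 ± 13.1 CPM in dsfb and 56.8 ± 9.59 CPM in control (log2 fold change 1.14, adjusted p = 0.00031). Among 14 other genes of the insulin-like growth factor axis 10 rose (71.4%), 1 fell (7.14%) and 3 did not pass, with a median of 0.91. The share that passed was 78.6%. Igfbp7 averaged 134 CPM in dsfb and 61.6 CPM in control, Igf2bp1 averaged 42.3 CPM in dsfb and 20.0 CPM in control, and Insr averaged 43.0 CPM in dsfb and 22.8 CPM in control, while Igf2bp3 averaged 20.3 CPM in dsfb and 67.1 CPM in control.

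Markers of cell types also changed, in both directions, where 30.7% of all tested genes rose and 36.2% fell. All 15 Sertoli cell markers rose, with log2 fold changes of 0.86 to 1.37 and summed levels of 7020 to 7330 CPM in dsfb and 2940 to 3900 CPM in control. Stromal markers rose in 5 of 6 genes (1260 to 1380 CPM in dsfb, 466 to 668 CPM in control), peritubular myoid markers in 4 of 7 (521 to 697 CPM in dsfb, 301 to 415 CPM in control) and Leydig markers in 4 of 8 (357 to 633 CPM in dsfb, 254 to 460 CPM in control). Macrophage markers rose in 5 of 7 genes (213 to 291 CPM in dsfb, 126 to 170 CPM in control), endothelial markers in 3 of 7 (43.5 to 49.8 CPM in dsfb, 26 to 33.4 CPM in control) and spermatogonial markers in 6 of 8 (511 to 572 CPM in dsfb, 241 to 336 CPM in control). All 10 markers of pachytene spermatocytes fell, with sums of 433 to 443 CPM in dsfb against 7620 to 10100 CPM in control. All 7 tested of 8 spermatid markers fell too (27.1 to 35.4 CPM in dsfb, 358 to 874 CPM in control). Their sum was 874 CPM in control library 3, against 358 and 405 CPM in control libraries 1 and 2; without library 3, 5 spermatid markers were tested and all 5 fell, with a median of -3.62 in place of -6.99. Leaving out that library raised the Leydig rises to 7 of 8 and the peritubular myoid rises to 5 of 7. No marker was at 0 in all libraries.

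Of the 23 imprinted genes that rose, 14 had a log2 fold change within the Sertoli marker range of 0.86 to 1.37. Another 4 were above it (Cdkn1c, Gnas, Peg12 and Zim1) and 5 were below. The share of all rising genes within this range was not computed, and it is not particular to Sertoli markers. Stromal markers ran from 0.45 to 1.46, peritubular myoid from -1.03 to 1.13, macrophage from 0.3 to 1.12 and spermatogonial from 0.02 to 1. Immediate early genes, which respond to tissue handling, rose in 6 of 7 (92.6 to 140 CPM in dsfb, 46.3 to 52.2 CPM in control). Without control library 3 all 7 rose. The part of cell makeup, of handling or of depth in the changes of the imprinted genes was not tested. Over all tested members the median difference from the control mean was 0.69, 0.75 and 0.66 log2 units in dsfb libraries 1, 2 and 3. In control libraries 1, 2 and 3 it was 0.1, 0.06 and -0.2. Members that rose or fell were picked from these same libraries, so the side of their medians was set by that choice. For the members that rose the medians were 0.98 to 1.02 in dsfb, against 0.2, 0.11 and -0.3 in control. For the members that fell they were -1.48, -1.26 and -1.15 in dsfb and -0.17, -0.1 and 0.24 in control.

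**Figure D4:**
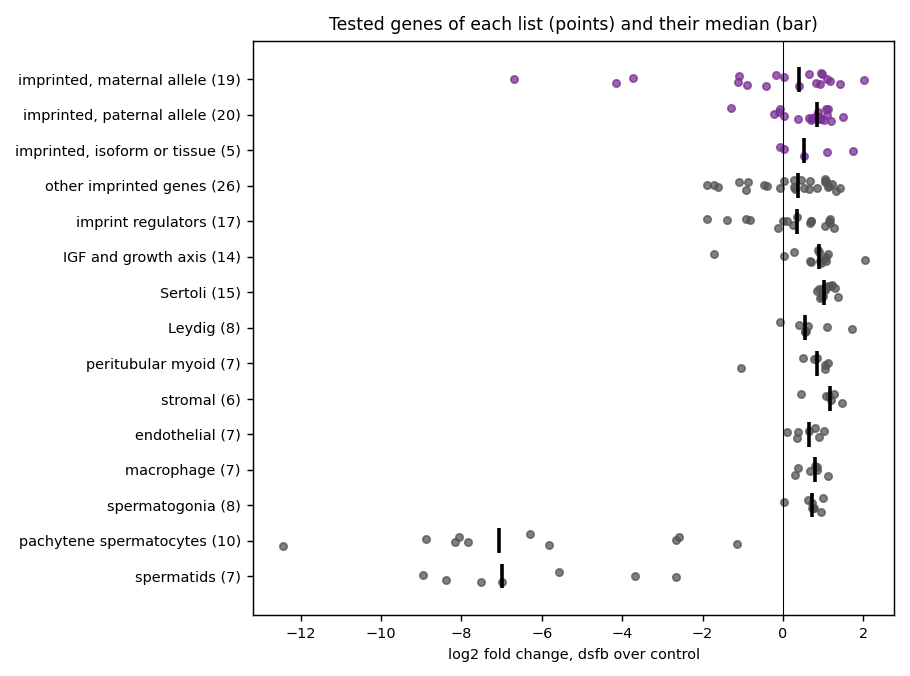
Log2 fold change of dsfb over control for each tested gene (points) and the median (bar) of the imprinted genes by expressed allele, of related lists and of cell type markers. The Sertoli markers lie between 0.86 and 1.37, the imprinted genes spread from -6.7 to 2.01, and the markers of pachytene spermatocytes and spermatids have medians of -7.06 and -6.99.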

How the data were processed

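Polyadenylated RNA of testes was, per the labels, extracted with TRIzol and prepared with the NEBNext Ultra kit. The deposited table holds raw read counts per gene for the 3 dsfb and 3 control libraries. Reads were aligned by the authors with STAR 2.6.0 to mm10, per the submitters' processing notes; for the counting tool, its annotation and its use of strand nothing is given in the sources used here. All columns were used. Of 55487 gene identifiers 55227 were found in GENCODE M21 (GRCm38).

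Counts were fitted with edgeR 4.0.16 in R 4.3.3 (filterByExpr with the group, TMM scaling, glmQLFit and glmQLFTest with the group as the only term), with Benjamini-Hochberg adjustment over all 19826 tested genes and a threshold of 0.05. The fit was first tried on simulated counts with a small number of changed genes and no outlying library. That setting does not cover a table in which 66.9% of tested genes passed. Fold changes use a prior count of 0.125, the SE is |log2 fold change| divided by the root of F, and CPM use TMM-scaled library sizes and are given per library or as mean ± SD. Depth was 15335130 to 27707291 reads per library, and the limit of 3 counts covers counting error only. Pair ratios are log2 ratios of CPM + 0.1, compared by exact two-sided permutation tests of library labels. Start windows and microRNAs are those of RefSeq (GRCm38.p6).

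The members and lists were chosen with earlier results of these data known. Full values are given for every long non-coding RNA, for both genes of each pair and for each member that passed with at least a 2-fold change; values of other members are given beyond that rule. Of each related list up to 4 genes with the smallest p are named. Other scalings, filters on low counts, DESeq2 1.42.0, limma-voom (limma 3.58.1), leaving out each library and a replicate block were tried as alternatives. Leaving control library 3 out of the marker lists was added after the data had been seen.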

Additional observations from a re-analysis of the deposited data

How the results depend on the processing

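The 23 rises and 7 falls of imprinted genes became 18 to 24 rises and 6 to 9 falls when each library was left out in turn, and 20 to 30 rises and 6 to 7 falls under the other settings. DESeq2 gave 22 rises and 7 falls and limma-voom 23 and 6. Same-numbered libraries of the groups had correlations of 0.07, 0.06 and 0.12 of their deviations, each the highest for its own number, which is a hint from the data and not from the design; the samples share only a number. With the replicate block the same 23 members rose and the same 7 fell, with a median log2 fold change of 0.79. The median of the members was 1 with upper-quartile scaling and 1.11 with library size alone; in these 2 settings the maternal median was 0.69 and 0.8, the paternal 1.13 and 1.24, and that of the isoform-dependent genes 0.8 and 0.92. Library size alone gave 5 rises among the isoform-dependent genes and 12 among imprint regulators, and the other imprinted genes had 5 falls with upper-quartile scaling and 3 with library size. DESeq2 gave 5 falls among imprint regulators. Leaving out single libraries gave maternal medians of 0.14 to 0.62 and 1 to 2 paternal falls. The difference in log2 ratio ran from -0.37 to 0.5 for H19 over Igf2 (-0.06 with a pseudocount of 0.5 counts), from -0.06 to 1.09 for Kcnq1ot1 over Kcnq1 and from -0.5 to 0.26 for Meg3 over Dlk1. The sign turned for members that did not pass and lay near 0. With upper-quartile scaling and library size alone the log2 fold changes were 0.1 and 0.21 for Copg2, 0.06 and 0.17 for Kcnq1ot1, 0.19 and 0.3 for Zdbf2, 0.22 and 0.34 for Peg13 and 0.2 and 0.31 for H13. Peg13 was at 0.06 with limma-voom and 0.04 with the block. With RLE scaling, no filter and DESeq2 the values were -0.07, -0.06 and -0.07 for Grb10, -0.07, -0.05 and -0.07 for Tssc4 and -0.08, -0.04 and -0.09 for Rasgrf1. Leaving out single libraries gave -0.05 to 0.08 for Grb10, -0.09 to 0.13 for Tssc4, -0.37 to 1.02 for Rasgrf1 and -0.33 to 0.4 for Peg13. The cause of these shifts was not tested beyond the scale factors named. Depth limits the genes below about 1 CPM, such as Kcnq1, Phlda2 and Peg12.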

Other observations

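Further imprinted genes beside the member clusters also differed; they were named after their values were seen. Usp29 and Zfp264, neighbours of Peg3 and Zim1 on chromosome 7, were lower while those 2 genes were higher. Zfp264 averaged 5.67 ± 0.508 CPM in dsfb and 10.4 ± 1.9 CPM in control (log2 fold change -0.88, adjusted p = 0.00663; SD, n = 3 each), and Usp29 averaged 0.714 CPM in dsfb and 1.36 CPM in control (log2 fold change -0.92, adjusted p = 0.0455). Near Cdkn1c, Nap1l4, a histone chaperone gene, averaged 181 ± 9.26 CPM in dsfb and 253 ± 14.9 CPM in control (log2 fold change -0.48, adjusted p = 0.00181). Osbpl5 and Dhcr7, which lie beyond Nap1l4 on the same chromosome, rose instead (log2 fold change 1.32 and 0.68, adjusted p = 0.000126 and 0.00655). Gatm, an enzyme of creatine synthesis that is imprinted in placenta, averaged 448 ± 30 CPM in dsfb and 203 ± 45.3 CPM in control (log2 fold change 1.14, adjusted p = 0.000659).

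Among further imprint regulators, Tet1 averaged 11.3 CPM in dsfb and 4.99 CPM in control and Tet2 averaged 24.4 CPM in dsfb and 10.1 CPM in control, and both rose (adjusted p = 0.00311 and 0.00103). Trim28, the cofactor of ZFP57, averaged 406 ± 20.9 CPM in dsfb and 715 ± 84.8 CPM in control and fell (log2 fold change -0.82, adjusted p = 0.000472). The maintenance methylase Dnmt1 averaged 174 ± 7.81 CPM in dsfb and 190 ± 10.8 CPM in control and did not pass (adjusted p = 0.213).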
